A study of Homo sapiens with 8 samples.

Results

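The RNAs described here are the long noncoding hosts of small nucleolar RNAs (snoRNAs). They were taken by symbol from the 2 deposited tables: every row named SNHG and a number, together with GAS5, ZFAS1, EPB41L4A-AS1 and DANCR. The rule gave 28 of 58302 listed genes and used no measured value. The libraries came from MOLM-13, an established human acute myeloid leukaemia cell line. One hairpin was directed at circMYBL2, which is a circular transcript of MYBL2 (sh-circMYBL2, written Sh-cricMY1 in the sample titles), and the other was the control (sh-NC). Each hairpin had 2 libraries of ribosome footprints and 2 of input RNA, 4 groups in all, and no other genotype, drug or time is given. The series title asks about translation of FLT3, a receptor kinase of leukaemia cells. No label states that replicate libraries were grown as separate cultures, so p-values measure the spread between these libraries, which may be technical. The knockdown itself is not checked here, since no row was matched to circMYBL2.

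SnoRNAs guide chemical changes of ribosomal RNA: C/D box snoRNAs (symbols starting SNORD) guide methylation of the ribose, and H/ACA box snoRNAs (SNORA) guide pseudouridylation. Most human snoRNAs are cut out of introns, and the host transcript carries them to splicing. Several spliced hosts, GAS5 and SNHG1 among them, hold no long open reading frame, are entered by ribosomes all the same, and are then removed by nonsense-mediated decay, which acts during translation. The same hosts are known for a terminal oligopyrimidine (TOP) start, a cytidine followed by a run of C and T that messages of ribosomal proteins share. This is why footprints were set beside RNA for each host, and why the start sites are shown first.

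Sequences around the annotated start (20 bases before it and 30 from it, 5′ to 3′ on the strand of the gene) were read from RefSeq, build GRCh38.p14, for the hosts called below and the most abundant ones. Capitals mark the annotated first base and any unbroken run of C and T from it.
GAS5, chr1:173869016-173869065, minus strand: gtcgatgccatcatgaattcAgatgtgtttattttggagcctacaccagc
SNHG1, chr11:62855856-62855905, minus strand: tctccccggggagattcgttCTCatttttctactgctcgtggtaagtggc
SNHG5, chr6:85678704-85678753, minus strand: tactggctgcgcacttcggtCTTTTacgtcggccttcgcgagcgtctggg
ZFAS1, chr20:49278622-49278671, plus strand: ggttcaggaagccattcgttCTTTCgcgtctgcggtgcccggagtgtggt
SNHG8, chr4:118278742-118278791, plus strand: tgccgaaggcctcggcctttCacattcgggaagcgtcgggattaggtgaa
SNHG26, chr7:22854220-22854269, plus strand: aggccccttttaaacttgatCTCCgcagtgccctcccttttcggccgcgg
EPB41L4A-AS1, chr5:112160506-112160555, plus strand: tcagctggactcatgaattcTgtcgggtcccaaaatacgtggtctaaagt
SNHG3, chr1:28505923-28505972, plus strand: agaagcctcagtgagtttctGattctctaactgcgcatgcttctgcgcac
SNHG16, chr17:76557744-76557793, plus strand: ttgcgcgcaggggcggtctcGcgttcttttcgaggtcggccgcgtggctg
SNHG19, chr16:2155329-2155378, minus strand: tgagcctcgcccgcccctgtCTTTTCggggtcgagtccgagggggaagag
A C at the annotated start followed by at least 4 bases of C or T, read on the strand of the gene only, was present in SNHG5, ZFAS1, SNHG19, SNHG12, SNHG18 and SNHG4. These were 6 of the 24 hosts matched to a start (25.0%). The same letters began 1104 of all 27305 starts in the table (4.04%) and 45 of 70 starts of cytosolic ribosomal protein genes (64.3%). SNHG1 had a run of 3 bases, SNHG26 one of 4 bases, and GAS5 an A. No start was matched for SNHG6, SNHG9, SNHG15 and SNHG25. Only the 1 start that the table lists for a gene was read.

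Reads on genes numbered 13504625 to 14603224 in the input RNA libraries, where pairs of replicates correlated at r = 0.983 over genes for either hairpin. The footprint libraries were shallower and uneven, and their replicates correlated at r = 0.804 with sh-circMYBL2 and only 0.575 with sh-NC. Since the footprint columns of sh-circMYBL2 carry no replicate number, its libraries are lettered a and b; they held 222830 and 715024 reads, against 80147 and 300381 in sh-NC libraries 1 and 2. The share of footprint reads on microRNA genes was 32.8% and 12.2% with sh-circMYBL2 and 42.7% and 57.2% with sh-NC, and that on snoRNA genes 7.71% and 4.07% against 11.2% and 10.3%. Protein-coding genes took 56.4% and 81.7% with sh-circMYBL2 and 42.1% and 29.5% with sh-NC. This composition moved with the hairpin, and its part in the footprint results below was not tested. The totals to which the authors scaled the footprint libraries were 258923 and 1113399 for a and b of sh-circMYBL2. They were 82265 and 185632 for sh-NC libraries 1 and 2. The total of sh-NC library 2 was below its reads on genes, and the other totals were above theirs, most of all in library b. Footprint RPKM thus set sh-circMYBL2 lower against sh-NC than shares of reads do. The part of this scaling was not tested either. Markers of myeloid leukaemia cells were present in input RNA, from MPO at 2.27 to 3.21 FPKM up to LYZ, the lysozyme gene, at 557 to 754 FPKM. Markers of erythroid, lymphoid, fibroblast and epithelial cells reached at most 0.109 FPKM. In bulk RNA, fewer cells with a transcript and less of it per cell cannot be told apart.

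In input RNA, the host RNAs together took 0.311% and 0.322% of reads with sh-circMYBL2 and 0.323% and 0.321% with sh-NC. Of the 28 hosts, 23 had a mean of at least 1 FPKM over the 4 libraries and entered the test; FPKM are reads divided by gene length and by the total to which the authors scaled a library. SNHG25 rose in sh-circMYBL2 cells, and SNHG26, ZFAS1 and SNHG8 fell. Those 4 calls are 17.4% of the hosts tested, against 8.88% of all 12489 genes tested by the same limma fit (4.92% higher and 3.96% lower). The median log2 change was -0.01 over the 23 hosts and 0.0 over all genes tested. The changes of 18 hosts lay within 0.20 of 0 on the log2 scale.

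SNHG25 (chr17:64145970-64146309) is a short host that holds the C/D box snoRNA SNORD104 by position. It stood at 10.9 and 14.1 FPKM with sh-circMYBL2 and at 5.41 and 5.0 FPKM with sh-NC, which are 42 and 57 reads against 20 and 20. Both sh-circMYBL2 libraries were above both sh-NC libraries. The log2 change was 1.11 (SE 0.13, 95% interval 0.75 to 1.47, limma adjusted p = 0.026 by Benjamini-Hochberg).

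SNHG26 (chr7:22854240-22861436), the host of the C/D box snoRNA SNORD93, was lower: 9.73 and 9.44 FPKM with sh-circMYBL2 against 14.5 and 14.9 FPKM with sh-NC. The groups did not overlap, and the log2 change was -0.57 (SE 0.04, 95% interval -0.69 to -0.45, limma adjusted p = 0.0122). ZFAS1 (chr20:49278178-49289260), which lies antisense to the start of ZNFX1 and carries the SNORD12 family, had 107 and 106 FPKM with sh-circMYBL2 and 128 and 132 FPKM with sh-NC. Both sh-circMYBL2 libraries were the lower ones (log2 change -0.28, SE 0.03, limma adjusted p = 0.0244). SNHG8 (chr4:118278762-118279823), the host of the H/ACA box snoRNA SNORA24, had 86.7 and 89.0 FPKM with sh-circMYBL2 against 102 and 106 FPKM with sh-NC. Its log2 change was -0.24 (SE 0.04, limma adjusted p = 0.0407), again with no overlap. None of these 4 calls remained when any of the 4 RNA libraries was left out: adjusted p-values then lay between 0.0815 and 0.165, with the same signs. No gene of the whole table was called in those fits either. The log2 changes stayed between 0.94 and 1.29 for SNHG25 and between -0.59 and -0.55 for SNHG26. With all 4 libraries, an unadjusted limma p under 0.05 was found for 6 of the 23 hosts and for 3653 of all 12489 genes. Without a filter on low values, 0 hosts and 97 genes were called.

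The most abundant hosts did not pass the test. GAS5 (chr1:173863901-173869045), named for its accumulation in growth-arrested cells, was first in level with 217 and 221 FPKM with sh-circMYBL2 and 241 and 238 FPKM with sh-NC. Its groups did not overlap, with a log2 change of -0.13 (SE 0.03, limma adjusted p = 0.0778). SNHG6, the host of SNORD87, followed with 205 and 227 FPKM with sh-circMYBL2 and 214 and 218 FPKM with sh-NC, and these libraries overlapped. SNHG5, the host of the SNORD50 pair, had 166 and 170 FPKM with sh-circMYBL2 against 166 and 167 FPKM with sh-NC. EPB41L4A-AS1, which holds SNORA13, had 69.8 and 71.4 FPKM with sh-circMYBL2 and 69.4 and 71.8 FPKM with sh-NC. SNHG1, the host of a cluster of C/D box snoRNAs, had 62.8 and 71.1 FPKM with sh-circMYBL2 and 68.9 and 67.4 FPKM with sh-NC.

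Below these, SNHG3 averaged 34.2 ± 1.32 FPKM with sh-circMYBL2 and 34.2 ± 1.42 FPKM with sh-NC (SD, n = 2 each). SNHG16 had 22.8 and 22.5 FPKM with sh-circMYBL2 against 24.3 and 21.8 FPKM with sh-NC. SNHG19 had 28.0 and 18.1 FPKM with sh-circMYBL2 and 18.2 and 18.9 FPKM with sh-NC, so that sh-circMYBL2 library 1 alone was apart. Its log2 change of 0.27 was the largest of those that did not pass (SE 0.21, 95% interval -0.31 to 0.85, limma adjusted p = 0.463). SNHG7, which had 13.1 and 13.2 FPKM with sh-circMYBL2 against 11.8 and 11.6 FPKM with sh-NC, did not overlap between hairpins but missed the threshold (log2 change 0.16, limma adjusted p = 0.0899). The remaining 10 hosts tested, SNHG12, SNHG4, SNHG20, DANCR, SNHG15, SNHG14, SNHG10, SNHG17, SNHG22 and SNHG21, had log2 changes between -0.13 and 0.11 and lay between 1.85 and 19.9 FPKM. In order of level, SNHG6 and GAS5 overlapped in their libraries with sh-circMYBL2 but not with sh-NC.

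**Figure D1:**
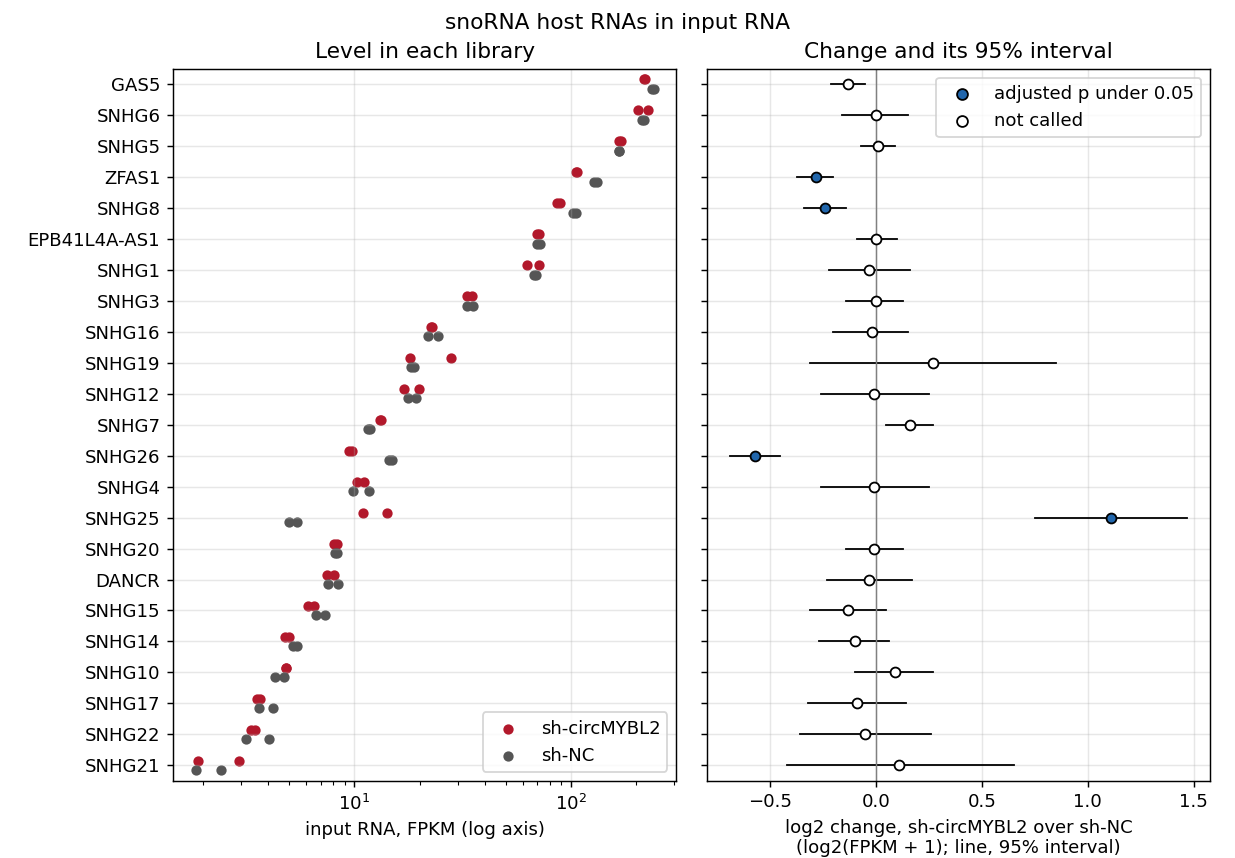
Input RNA of the 23 hosts tested. Left, FPKM in each library on a log axis, with sh-circMYBL2 in red above sh-NC in grey; right, the log2 change of sh-circMYBL2 over sh-NC with its 95% interval from limma, filled where the adjusted p was under 0.05. SNHG25 lies to the right of 0 at 1.11, SNHG26, ZFAS1 and SNHG8 lie to the left, and 18 hosts lie within 0.20 of 0.

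The 5 hosts below the filter were low in every library. SNHG9 had 0.784 and 1.75 FPKM with sh-circMYBL2 and 0.546 and 0.378 FPKM with sh-NC, and SNHG11 had 0.410 and 0.563 against 0.267 and 0.272. SNHG18 had 1 read in all, in an sh-NC library. SNHG27 and SNHG28 were listed at 0 in every library of both assays.

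The proteins that hosts and snoRNAs depend on were read from the same fit. Of 18 proteins of snoRNA particles, none passed the test in RNA with limma, and their median log2 change was 0.0. An unadjusted p under 0.05 was found for 3 of them, beside 3653 of all 12489 genes. FBL, the methyltransferase of C/D box particles, had 101 and 118 FPKM with sh-circMYBL2 and 86.8 and 95.4 FPKM with sh-NC (log2 change 0.26, limma adjusted p = 0.163). The H/ACA proteins NOP10 and GAR1 had log2 changes of -0.21 and -0.28 (limma adjusted p = 0.0685 and 0.0986). Of 22 factors of nonsense-mediated decay and the exon junction complex, 1 was called, as lower (4.55%, against 8.88% of all genes). RBM8A, a core protein of that complex, averaged 13.1 ± 0.0633 FPKM with sh-circMYBL2 and 16.6 ± 0.0534 FPKM with sh-NC (SD, n = 2 each, log2 change -0.31, limma adjusted p = 0.0251). EIF4A3 of the same list went the other way, with 6.80 and 6.74 FPKM against 5.83 and 5.41 FPKM (log2 change 0.23, limma adjusted p = 0.0891). The helicase UPF1 had 4.86 and 4.70 FPKM with sh-circMYBL2 against 3.45 and 3.96 FPKM with sh-NC, which also missed the threshold (limma adjusted p = 0.0995).

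Other long noncoding RNAs without the host role gave a different count. Of 17 listed, 12 were tested, and 5 of these fell and none rose (41.7% called, median log2 change -0.17). MIR155HG, the precursor of miR-155, had a log2 change of -0.44 and NEAT1, the scaffold of paraspeckles, one of -0.41. Of 85 cytosolic ribosomal protein genes tested, a class in which the tract was read at 45 of 70 starts, 2 rose and 2 fell. RPL22L1 had 57.2 ± 0.238 FPKM with sh-circMYBL2 and 35.5 ± 0.593 FPKM with sh-NC (SD, n = 2 each, limma adjusted p = 0.00808). Protein-coding genes that hold a snoRNA by position, 321 tested, had 20 higher and 12 lower (9.97%) and a median log2 change of -0.02. Whether these lists differ from the hosts was not tested.

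In footprints, 3 hosts took nearly all reads. GAS5, SNHG1 and SNHG5 held 10785 of the 11066 footprint reads on host RNAs over the 4 libraries (97.5%), while the same RNAs held 48.8% of the hosts' RNA reads. The other 25 hosts shared 281 footprint reads, and 9 of them had none in any library. Only these 3 hosts had at least 10 reads in every footprint library. The Wilson intervals below, and the floor of 3 reads used further on, cover counting error only.

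GAS5 had 1280 and 575 RPKM in footprint libraries a and b of sh-circMYBL2 and 2640 and 4830 RPKM in libraries 1 and 2 of sh-NC, from 1205, 2323, 788 and 3257 reads. It was thus lower in both sh-circMYBL2 libraries. As a share of footprint reads, GAS5 took 0.541% and 0.325% with sh-circMYBL2 (95% Wilson intervals 0.511% to 0.572% and 0.312% to 0.338%) and 0.983% and 1.08% with sh-NC (0.917% to 1.05% and 1.05% to 1.12%). The log2 change in RPKM was -2.06 (SE 0.67, 95% interval -3.90 to -0.21), and it did not pass the test over 9431 genes (limma adjusted p = 0.342).

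SNHG1 had 541 and 223 RPKM with sh-circMYBL2 and 929 and 1460 RPKM with sh-NC, from 526, 934, 287 and 1019 reads. The libraries of the hairpins did not overlap, and the log2 change of -1.74 did not pass either (SE 0.62, limma adjusted p = 0.379). SNHG5 had 138 and 73.9 RPKM with sh-circMYBL2 against 135 and 164 RPKM with sh-NC, with overlap (log2 change -0.55, SE 0.46, limma adjusted p = 0.65). The fit called 0 of the 15 hosts tested and 0.0% of all genes. An unadjusted p under 0.05 was found for 6 hosts and for 1212 genes. Besides GAS5 and SNHG1, these hosts were ZFAS1, SNHG6, SNHG16 and SNHG3, which had no sh-NC read. They passed the filter only through sh-circMYBL2 reads, so the 6 are not read as an excess. Voom on the reads behind the values called 0 hosts and 56 genes. The median log2 change was 0.76 over the 15 hosts, which include those that passed the filter only through sh-circMYBL2 reads, and 0.56 over all genes. With quantile normalization, which took the median of all genes to 0.07, GAS5 was at -0.96 and SNHG1 at -0.57. With a footprint library left out, GAS5 lay between -2.63 (without library a) and -1.48 (without library b), and SNHG1 between -2.38 and -1.11 for the same libraries; SNHG5 lay between -1.0 and -0.10. As deposited and relative to the median of all genes, GAS5 stood at -2.62, SNHG1 at -2.30 and SNHG5 at -1.11. These sizes depended on the setting: with quantile normalization they were -1.03, -0.64 and -0.04. As a share of footprint reads, SNHG1 took 0.236% and 0.131% with sh-circMYBL2 and 0.358% and 0.339% with sh-NC. SNHG5 took 0.0449% and 0.0322% with sh-circMYBL2 against 0.0387% and 0.0283% with sh-NC, with overlap.

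The size of these differences depended on what the reads were set against. Per 100 reads on protein-coding genes, GAS5 had 0.958 and 0.398 with sh-circMYBL2 and 2.34 and 3.67 with sh-NC, and SNHG1 had 0.418 and 0.16 against 0.852 and 1.15. Both hosts were lower in both sh-circMYBL2 libraries on this scale, as was SNHG5 with 0.0795 and 0.0394 against 0.092 and 0.0958. Per 100 reads on snoRNA genes, SNHG1 was nearly level, with 3.06 and 3.21 for sh-circMYBL2 and 3.19 and 3.3 for sh-NC. GAS5 had 7.01 and 7.98 with sh-circMYBL2 and 8.76 and 10.6 with sh-NC on that scale. SNHG5 went the other way there, with 0.582 and 0.79 against 0.345 and 0.275. With footprints scaled to snoRNA reads, an alternative chosen after the data were seen, the log2 changes were -0.36 for GAS5, -0.05 for SNHG1 and 1.13 for SNHG5, beside a median of 1.79 over all genes. Relative to this median the 3 hosts stood at -2.15, -1.84 and -0.66.

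**Figure D2:**
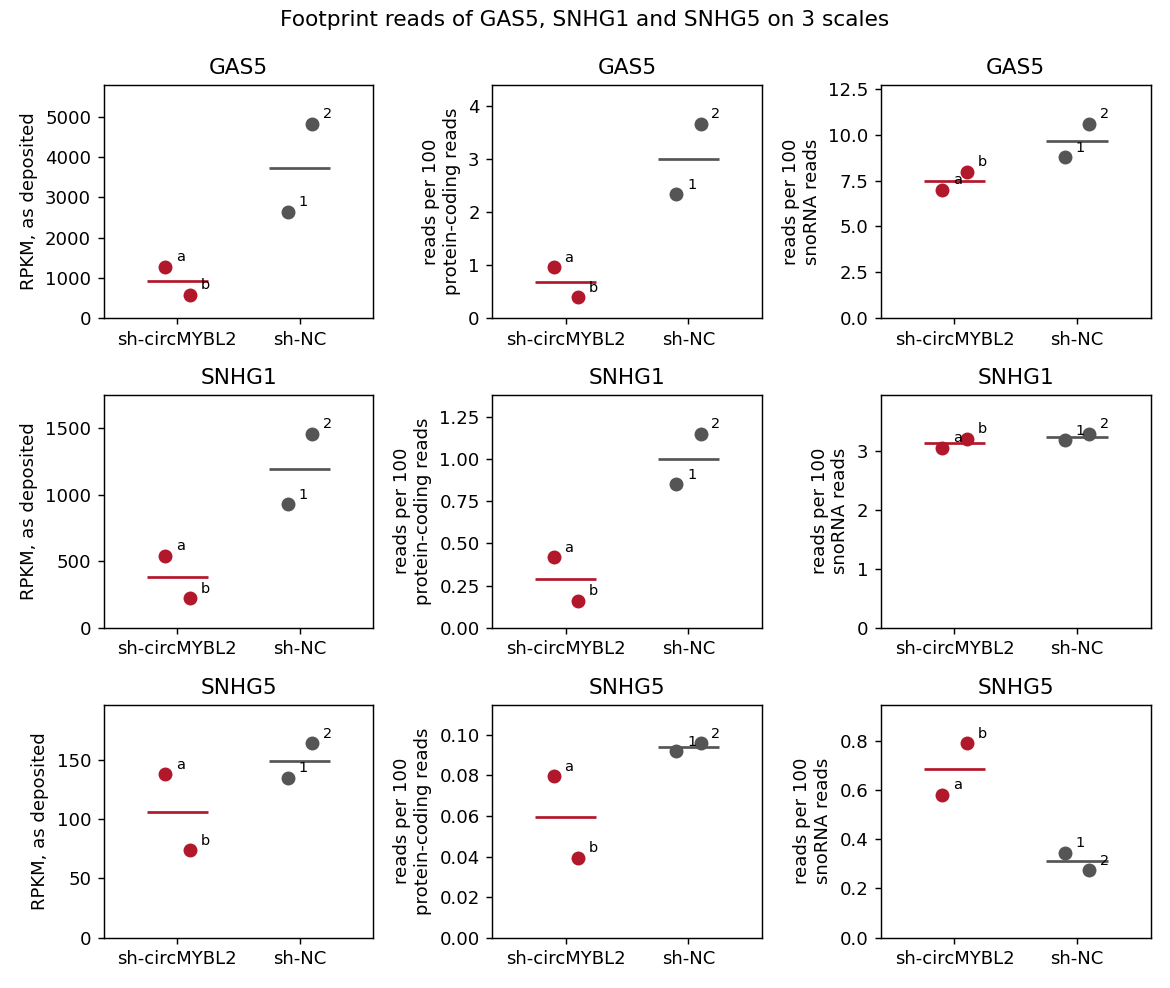
Footprint reads of GAS5, SNHG1 and SNHG5 (rows) on 3 scales (columns): RPKM as deposited, reads per 100 reads on protein-coding genes and reads per 100 reads on snoRNA genes, all on linear axes from 0. Points are libraries (a and b of sh-circMYBL2 in red, 1 and 2 of sh-NC in grey) and lines their means. GAS5 and SNHG1 are lower with sh-circMYBL2 in the first 2 columns, SNHG1 is at 3.06 to 3.3 in every library in the last, and SNHG5 is there higher with sh-circMYBL2.

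The levels of these hosts were also set against their RNA, as footprint RPKM over the mean RNA FPKM of the same hairpin. The tables were normalized separately, so the ratios are read only beside those of other genes, with no test. Where in a row the reads lie is not known, so a ratio is not read as ribosome load on the spliced host. GAS5 had ratios of 5.86 and 2.63 with sh-circMYBL2 and 11.0 and 20.2 with sh-NC, and SNHG1 had 8.08 and 3.34 against 13.6 and 21.5. The median over 7702 protein-coding genes was 0.849 with sh-circMYBL2 and 0.638 with sh-NC. These genes had a mean of at least 1 in both assays, whereas hosts needed it only in RNA. Hosts with few footprint reads are thus set beside genes chosen for having footprints. The mean ratio of GAS5 was above that of 96.3% of protein-coding genes with sh-circMYBL2 and of 99.2% with sh-NC, and that of SNHG1 above 98.2% and 99.4%. SNHG5, with 0.824 and 0.441 for sh-circMYBL2 and 0.81 and 0.984 for sh-NC, lay near the protein-coding median. DANCR, an RNA known for holding back differentiation of epidermal progenitors, had 1.52 and 1.16 with sh-circMYBL2, and 0 and 2.36 with sh-NC from 0 and 8 reads. Every other host had a mean ratio of at most 0.388 with sh-circMYBL2. With sh-NC, SNHG7 had a mean of 0.957, from ratios of 1.91 and 0 on 8 and 0 reads, and SNHG26 had 0.769, from 1.26 and 0.279 on 4 and 2 reads. Both were above the sh-NC median of protein-coding genes, and the means of the other hosts with sh-NC were at most 0.37. EPB41L4A-AS1, sixth in RNA, had 2 footprint reads in all, and SNHG6, second in RNA, had 18.

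**Figure D3:**
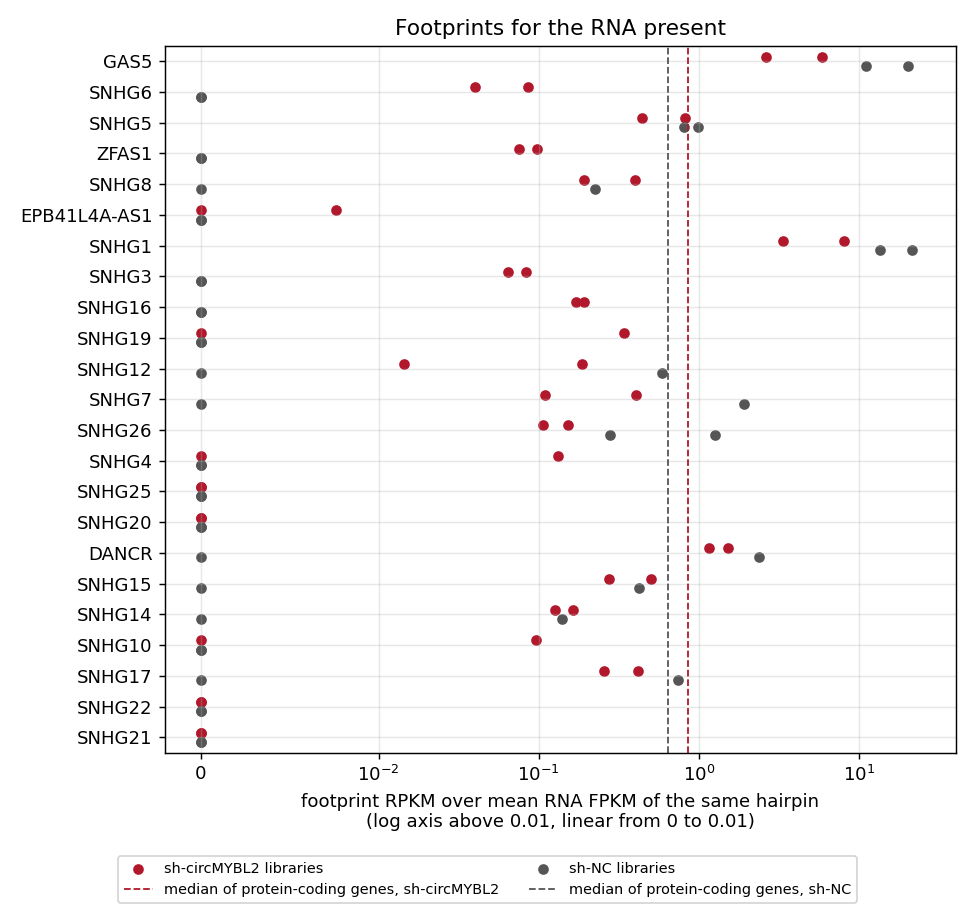
Footprint RPKM over mean RNA FPKM for the 23 hosts in order of RNA level, on an axis that is logarithmic above 0.01 and linear from 0 to 0.01. Points are footprint libraries, sh-circMYBL2 in red above sh-NC in grey. Dashed lines are the medians of protein-coding genes that passed the filter in both assays (0.849 and 0.638). GAS5 and SNHG1 lie right of both lines in all 4 libraries, and most other hosts lie left of them or at 0.

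Footprint reads on the snoRNAs inside each host were compared with those on the host. By position in the RefSeq table, 140 snoRNAs lay within 23 of the hosts, and 130 of them were matched to rows, 114 to 1 row and 16 to several rows of the same symbol, which can include copies elsewhere in the genome. The hosts rich in footprints were those whose matched snoRNA rows were nearly empty. GAS5 had 7573 reads on its own row over the 4 libraries, and 4 on the 19 rows of its 7 matched snoRNAs, 1 in each library. SNORD47, SNORD80, SNORA103 and SNORD76, also inside GAS5, were not matched to a row. SNHG1 had 2766 reads, against 16 on the 10 rows of 7 matched snoRNAs, with SNORD31 and LOC124900306 not matched. SNHG5 had 446 reads and its SNORD50B row 0, with SNORD50A not matched. The same snoRNA rows held few reads in input RNA too: 20 for GAS5, 84 for SNHG1 and 0 for SNHG5 over 4 libraries. Their emptiness was thus not particular to footprints. Matched snoRNA rows inside SNHG25, SNHG26 and SNHG16 had 3927, 250 and 46 input RNA reads. The row lengths behind the values, recovered with the reads, were 3631 bases for GAS5, 3756 for SNHG1 and 2794 for SNHG5, against spans from first to last base of 5145, 3908 and 1727 in RefSeq. The row of SNHG5 was longer than its RefSeq span, so the gene models differ. The row of SNHG1 counted 3756 bases beside a span of 3908 that holds 9 snoRNAs by position. How many intronic or snoRNA bases a row takes in was not tested. Where in a host the reads lie is not given by these tables, and how reads over a host and a snoRNA were assigned is not given in the sources used here.

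Other hosts showed the reverse. SNORD93 had 22599 footprint reads and its host SNHG26 had 10. SNORD104 had 18754 and SNHG25 had 0. The snoRNAs of SNHG16 had 6869 reads beside 29 on the host, those of SNHG3 1693 beside 13, those of SNHG4 877 beside 3, those of SNHG17 504 beside 9, and SNORA13 469 beside 2 on EPB41L4A-AS1. In DANCR the numbers were 109 and 38, in SNHG12 197 and 7, in ZFAS1 144 and 26, and in SNHG14, which spans the SNORD115 and SNORD116 clusters of the Prader-Willi region with 84 snoRNAs, 96 and 45. SNHG8, SNHG7, SNHG6, SNHG15 and SNHG19 had 3 to 44 reads and none on a matched snoRNA row.

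**Figure D4:**
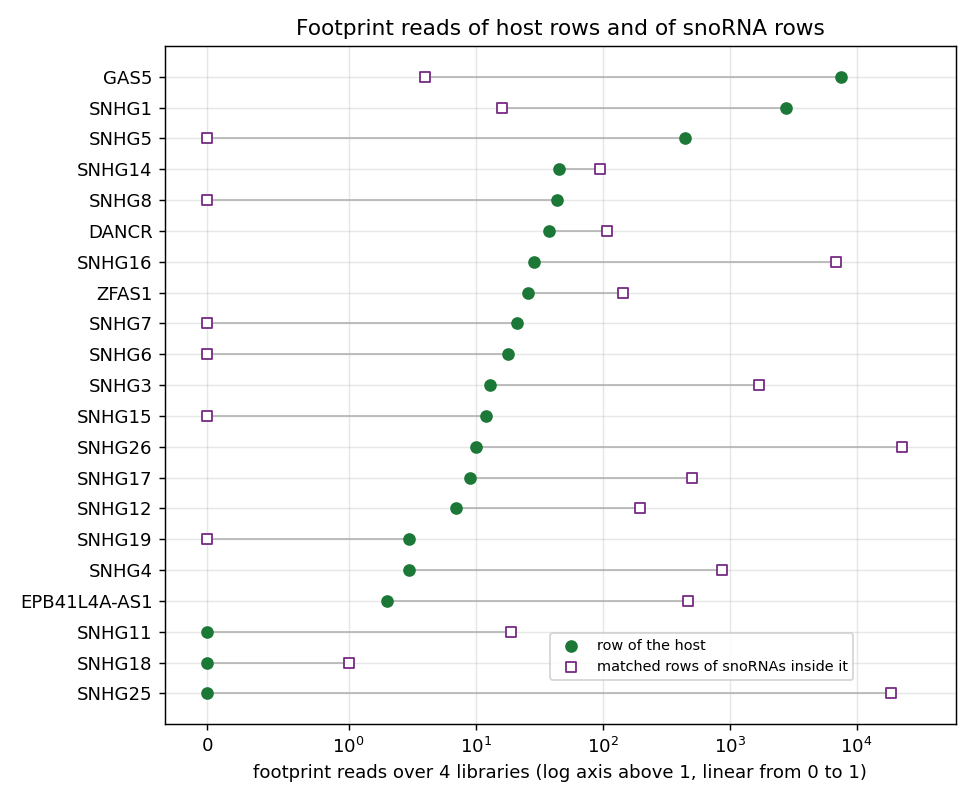
Footprint reads summed over the 4 libraries on the row of each host (green circles) and on the matched rows of the snoRNAs inside it (open squares), for hosts with a matched snoRNA and a read on either, on an axis that is logarithmic above 1 and linear from 0 to 1. GAS5, SNHG1 and SNHG5 have 7573, 2766 and 446 host reads and at most 16 on snoRNA rows, while SNHG26, SNHG25 and SNHG16 have 6869 to 22599 on snoRNA rows and at most 29 on the host.

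The 2 snoRNA rows with most footprint reads were lower with sh-circMYBL2 in both libraries, as were the host rows of GAS5 and SNHG1. SNORD93 stood at 186000 and 69500 RPKM with sh-circMYBL2 and at 596000 and 705000 RPKM with sh-NC (log2 change -2.51, SE 3.22, limma adjusted p = 0.763). SNORD104 had 138000 and 73900 RPKM with sh-circMYBL2 against 423000 and 620000 RPKM with sh-NC (log2 change -2.34, SE 2.94, limma adjusted p = 0.759). Neither passed the test. The fit draws the variance of a row toward a trend over level, so these SEs are not the spread of its libraries alone. In the fit of all 8 libraries described below, the SE was 0.75 for SNORD93 and 0.75 for SNORD104. SNORD1B of SNHG16 had 75700 and 21600 RPKM with sh-circMYBL2 and 63800 and 177000 RPKM with sh-NC, with overlap. Of 27 snoRNA rows inside hosts that were tested in footprints, 0 were called by limma and 4 had an unadjusted p under 0.05; their median log2 change was -0.05, against -0.45 over 154 snoRNA rows tested in all.

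Input RNA of the snoRNA rows was read for the 4 hosts that were called. SNORD104 had 944 and 1030 FPKM with sh-circMYBL2 and 1170 and 868 FPKM with sh-NC, with overlap (log2 change -0.03, limma adjusted p = 0.921), beside the rise of SNHG25. SNORD93 had 50.6 and 52.1 FPKM with sh-circMYBL2 and 80.3 and 59.2 FPKM with sh-NC. Its groups did not overlap, and its log2 change of -0.42, the same sign as that of SNHG26, missed the threshold (SE 0.15, limma adjusted p = 0.174). The rows of ZFAS1 differed in sign. SNORD12B had 457 and 467 FPKM with sh-circMYBL2 and 420 and 456 FPKM with sh-NC (log2 change 0.08, limma adjusted p = 0.393). SNORD12C had 15.4 and 15.5 FPKM with sh-circMYBL2 and 14.4 and 25.0 FPKM with sh-NC, with overlap, and its log2 change of -0.28 (SE 0.27, limma adjusted p = 0.534) had the sign and size of that of ZFAS1. SNORD12 of ZFAS1 and the SNORA24 rows of SNHG8 had 0 reads in RNA. SNORA71A of SNHG17, the most abundant H/ACA snoRNA among those matched to 1 row, had 843 and 833 FPKM with sh-circMYBL2 and 720 and 818 FPKM with sh-NC. Of 39 snoRNA rows inside hosts that were tested in RNA, 1 was called: SNORD116-10 of SNHG14 was lower, on 1 and 1 reads with sh-circMYBL2 and 3 and 4 reads with sh-NC (limma adjusted p = 0.0256). The host-to-snoRNA difference in change was not tested.

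Translational efficiency (TE) was the footprint change with the RNA change taken off, fitted over all 8 libraries. GAS5 had a log2 change in TE of -1.93 (SE 0.67, limma adjusted p = 0.187) and SNHG1 one of -1.71 (SE 0.65, limma adjusted p = 0.227). Neither passed the test. With voom 1 host was called in TE, GAS5, as lower. Over all 8260 genes, 5.31% were called, 5.05% higher and 0.266% lower, with a median log2 change in TE of 0.57.

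The limma fit called 4 of the 15 hosts tested, ZFAS1, SNHG6, SNHG16 and SNHG3, and these calls are not read as a change in TE. None of the 4 had a footprint read with sh-NC. They passed the filter only through their sh-circMYBL2 reads, which fixed the direction of the call. ZFAS1 had 6 and 20 footprint reads with sh-circMYBL2, SNHG6 had 6 and 12, SNHG16 had 6 and 23, and SNHG3 had 3 and 10, against 0 and 0 with sh-NC for each. Scaling totals, not reads on genes, were used to carry the rate seen with sh-circMYBL2 over to the sh-NC libraries. At that rate both sh-NC libraries together would give 5.08 reads for ZFAS1, 3.51 for SNHG6, 5.66 for SNHG16 and 2.54 for SNHG3. Set by reads on genes, these numbers would be larger. A count of 0 allows up to 3 reads over the group, close to the numbers from scaling totals. Since these numbers depend on the scale, no fold is given. With a pseudocount of 5 in place of 1, none of the 4 was called. Which hosts were called in TE changed with the library left out. In the fits that tested them, log2 changes in TE then lay between 3.46 and 3.79 for ZFAS1 and 3.27 and 4.3 for SNHG6. They lay between 2.29 and 2.45 for SNHG16 and 1.77 and 1.85 for SNHG3.

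The other 8 hosts tested in footprints had few reads and wide intervals. SNHG8 had 4 and 36 reads with sh-circMYBL2 and 0 and 4 with sh-NC (log2 change 2.36, SE 1.71, limma adjusted p = 0.627). A single library decided this value: the log2 change was 0.05 without sh-NC library 1 and 4.66 without sh-NC library 2. SNHG26, lower in RNA, had 1 and 3 reads with sh-circMYBL2 and 4 and 2 with sh-NC (log2 change -2.16, SE 0.94, limma adjusted p = 0.485). Its log2 change was -1.19 without sh-NC library 1 and -3.12 without sh-NC library 2. DANCR had 7 and 23 reads with sh-circMYBL2 against 0 and 8 with sh-NC, and SNHG7 had 6 and 7 against 8 and 0. SNHG12, SNHG15, SNHG17 and SNHG19 had at most 7 reads in a library. SNHG25, which rose in RNA, had no footprint read, so its TE could not be fitted.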

How the data were processed

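Ribosome footprints and input RNA of MOLM-13 cells with sh-circMYBL2 or sh-NC were deposited as 2 tables with Ensembl identifiers, symbols and biotypes. The authors deposited footprints as RPKM and input RNA as FPKM, in both cases reads divided by gene length and by a scaled library total. cutadapt, Bowtie, HISAT2, featureCounts, DESeq2 and build hg38 are named per the submitters' processing notes; for strand setting, roles and versions the sources used here say nothing, so reads of overlapping or antisense genes cannot be told apart. Per the labels' protocols, ribosomal RNA was removed and small RNA libraries were prepared. All 8 value columns were used; the sh-circMYBL2 footprint columns name their group but no replicate.

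Members, lists and tests were chosen with earlier results of these data known. The RNA and footprint fits were separate (limma 3.58.1, R 4.3.3; lmFit and eBayes with trend; two-sided tests). They used log2(value + 1), which understates changes of low genes, and left out genes whose mean was under 1. TE came from the hairpin-by-assay interaction over genes passing in both tables; footprints varied more than RNA but shared its variance there, so TE p-values may be too small. Benjamini-Hochberg adjustment covered all genes tested, with a threshold of 0.05.

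Reads behind values were recovered from their steps within 0.02 reads for all 30194 genes above 0. On their own, 98.6% to 99.4% of microRNA values were whole. In a simulation, 87.4% of 2759 genes came out exact and 99.79% of reads were recovered. One read was worth 0.898 to 12.156 RPM of the scaling total in footprints. The reads gave depth, shares, Wilson intervals (95%) and the floor of 3 reads, and entered a test only as the voom alternative. The fits were also run on simulated reads with a fixed spread and, apart from planted changes, a shared rate per gene. The real footprint libraries differed in composition, so that run does not vouch for the footprint or TE fits. SnoRNAs were placed in hosts by RefSeq position without strand, which that table does not hold, although the design had asked for it.

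Hosts called or among the 10 highest in RNA are given in full, others with a mean of at least 1 by range, up to 4 snoRNA rows per host, and up to 3 genes by smallest RNA p per other list. Alternatives were other pseudocounts (0.1, 5), filters (none, mean of at least 5), quantile normalization, voom, each library left out, a replicate block in RNA, and 2 further scalings of footprints chosen after the data were seen.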

Additional observations from a re-analysis of the deposited data

How the results depend on the processing

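In input RNA, 4 hosts were called, and also with pseudocounts of 0.1 and 5, a mean of at least 5 and quantile normalization, which called GAS5 in place of SNHG8. No filter gave 0. Voom gave 7 of the 23 hosts tested (2 higher, 5 lower), beside 3249 of all 12489 genes. The RNA libraries share replicate numbers; deviations of same-numbered libraries correlated at 0.0265, so they share only a number, and the fit with a replicate block called 0 hosts and 0 genes. No paired analysis was possible for footprints and TE because the sh-circMYBL2 footprint columns carry no number. Leaving out each RNA library gave 0 to 0 called hosts, snoRNA rows and list genes, against 4, 1 and 42. In footprints, leaving out a library gave 0 to 4 hosts (4 without library a: SNHG16, ZFAS1, SNHG6 and SNHG19; 2 without library b), 0 to 2 snoRNA rows and 0 to 6 list genes, against 0 of each. The lone library left in a group is then assumed to vary like the others. None of the 4 hosts named had a footprint read with sh-NC, and SNHG19 had only 3 reads, all in library b. They passed the filter only through sh-circMYBL2 reads, which fixed the direction of these values. The values are therefore not read as a change. In TE, 4 hosts became 0 with a pseudocount of 5, quantile normalization or snoRNA scaling, 1 with a mean of at least 5 and 1 with voom. Which hosts were called also changed with the library left out.

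The direction of some changes that had not passed the test reversed. EPB41L4A-AS1 was at -0.04 in RNA with quantile normalization. SNHG5, at -0.55 in footprints and -0.56 in TE, was at 0.03 in footprints with quantile normalization, and at 1.13 in footprints and 1.12 in TE with snoRNA scaling. SNHG19, at 1.58 in footprints and 1.31 in TE, was at -0.59 and -0.92 with voom. With an RNA library left out, log2 changes in RNA ranged from -0.1 to 0.05 for SNHG16, -0.01 to 0.03 for SNHG5, -0.02 to 0.03 for EPB41L4A-AS1, -0.04 to 0.04 for SNHG3, -0.08 to 0.07 for SNHG6, -0.12 to 0.06 for SNHG1 and -0.03 to 0.57 for SNHG19. The cause was not tested. From shares of protein-coding reads, footprint over RNA was 6.68 with sh-circMYBL2 and 27.6 with sh-NC for GAS5, 0.992 and 1.61 for SNHG5, and 9.0 and 31.2 for SNHG1. The median change of all genes in footprints was 0.56 as deposited, 0.07 with quantile normalization, 0.41 with protein-coding scaling and 1.79 with snoRNA scaling. Depth limits the hosts other than GAS5, SNHG1 and SNHG5 most: 17 of the 28 had no sh-NC footprint read.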
